A study of Mus musculus with 8 samples.

Results

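The D cyclins Ccnd1, Ccnd2 and Ccnd3, their kinase partners Cdk4 and Cdk6, and the cyclin-dependent kinase (CDK) inhibitors Cdkn1a, Cdkn1b, Cdkn2a, Cdkn2b and Cdkn2c were taken by gene name from the deposited tables. They are 10 of the 35275 genes listed there. The libraries measured messenger RNA in a mouse epicardial cell line (MEC), the cell layer that covers the heart, grown in high-glucose medium with fetal bovine serum. The 4 control libraries came from cells transduced with an empty-vector lentivirus (EV). The 4 knockout libraries carried a CRISPR/Cas9 edit aimed at Hdac3, a class I histone deacetylase that works in the NCoR and SMRT corepressor complexes (KO), and the labels name a lentivirus carrying an Hdac3 guide RNA. For KO replicate 1 the transduction field names the empty vector although it is titled as a knockout. Groups follow the titles, and the changes of the 10 genes and of the named pathway genes were also computed without that library. The labels do not say whether replicates were separate cultures or whether the knockout cells were 1 clone. The p-values therefore measure only the spread between these libraries, which may be technical.

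The cell cycle commits to DNA synthesis in G1. D cyclins are made in response to growth signals, bind CDK4 or CDK6, and the complexes phosphorylate the retinoblastoma protein, which releases E2F transcription factors to switch on cyclin E and the genes of S phase. The Ink4 inhibitors (Cdkn2a, Cdkn2b, Cdkn2c) bind the kinases CDK4 and CDK6 themselves, while the Cip/Kip inhibitors (Cdkn1a, Cdkn1b) bind assembled cyclin-CDK complexes and are best known as blocks on CDK2. In the heart, the epicardium proliferates and supplies fibroblasts and smooth muscle cells to the organ during development.

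Library totals ranged from 18063745 to 24564892 counts. A total of 12801 genes passed a filter on low counts, and 3324 of them (26.0%) were called by edgeR (quasi-likelihood F test, adjusted p under 0.05). In KO, 1613 (12.6%) were higher and 1711 (13.4%) lower. Scaled by library totals alone, that split was 1039 higher and 2414 lower. Hdac3 itself lay between 60.3 and 64.0 CPM (counts scaled to the size of the library) in the EV libraries and between 56.9 and 63.9 CPM in the KO libraries, and a Cas9 edit need not lower the transcript it disrupts, so this level does not check the labels. The epicardial and mesothelial markers summed to between 5728 and 6080 CPM in EV and between 5586 and 5750 CPM in KO, and of 13 tested 4 rose and 5 fell. Mesothelin (Msln, 683 and 926 CPM) and the keratins Krt18 (449 and 654 CPM), Krt8 and Krt19 rose. Wt1 (341 and 263 CPM), Tcf21, Upk3b, Lrrn4 and Gata4 fell, and the retinoic acid enzyme Aldh1a2 was near 0 in both groups (0.407 and 0.251 CPM). Of 6 tested fibroblast and mesenchymal markers 3 rose and 3 fell. The list summed to between 22262 and 24022 CPM in EV and between 29767 and 30847 CPM in KO. Most of this was Col1a1 (9668 and 13848 CPM) and Col1a2 (10386 and 12923 CPM), which rose, as did Dcn. Pdgfra, Postn and Lum fell, and Thy1 was near 0. Liver genes were low but higher in KO: the 15 genes summed to between 4.72 and 7.67 CPM in EV and to 14.0, 23.7, 22.8 and 8.98 CPM in KO replicates 1 to 4, with 3 of 5 tested genes higher, Alb the most abundant, and none of the 15 at 0 in all libraries. The blood marker list summed to between 4.58 and 5.84 CPM in EV and between 7.32 and 9.01 CPM in KO, of which Cd68 alone was 4.74 and 7.89 CPM on average, with Ptprc and the other 4 genes near 0. The cardiomyocyte list (145 to 158 CPM in EV, 112 to 129 in KO) was nearly all Tnnt2, with Nppa at 0. The endothelial list was at 24.7 to 28.6 CPM in EV and 19.0 to 21.3 in KO. It was mostly Kdr (21.7 and 14.6 CPM), while Tek rose (3.89 and 5.19 CPM). Pecam1, Cdh5, Tie1, Emcn and Vwf were near 0. The part of these lists in the results was not tested, other than by leaving out KO replicates 2 and 3.

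Of the 10 genes, 9 passed the filter and Cdkn2b had no count in any library. Ccnd1 and Cdkn1a rose in KO, and Ccnd2, Ccnd3 and Cdkn1b fell. Cdk4, Cdk6, Cdkn2a and Cdkn2c did not pass the test. The 5 genes called are to be read beside the 26.0% called among all genes tested. The median log2 fold change of the 9 tested genes was −0.05 and that of all genes tested was 0.01. Fewer cells of one kind (for example fewer cells in a given cycle phase) and less RNA per cell cannot be told apart in bulk libraries.

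**Figure D1:**
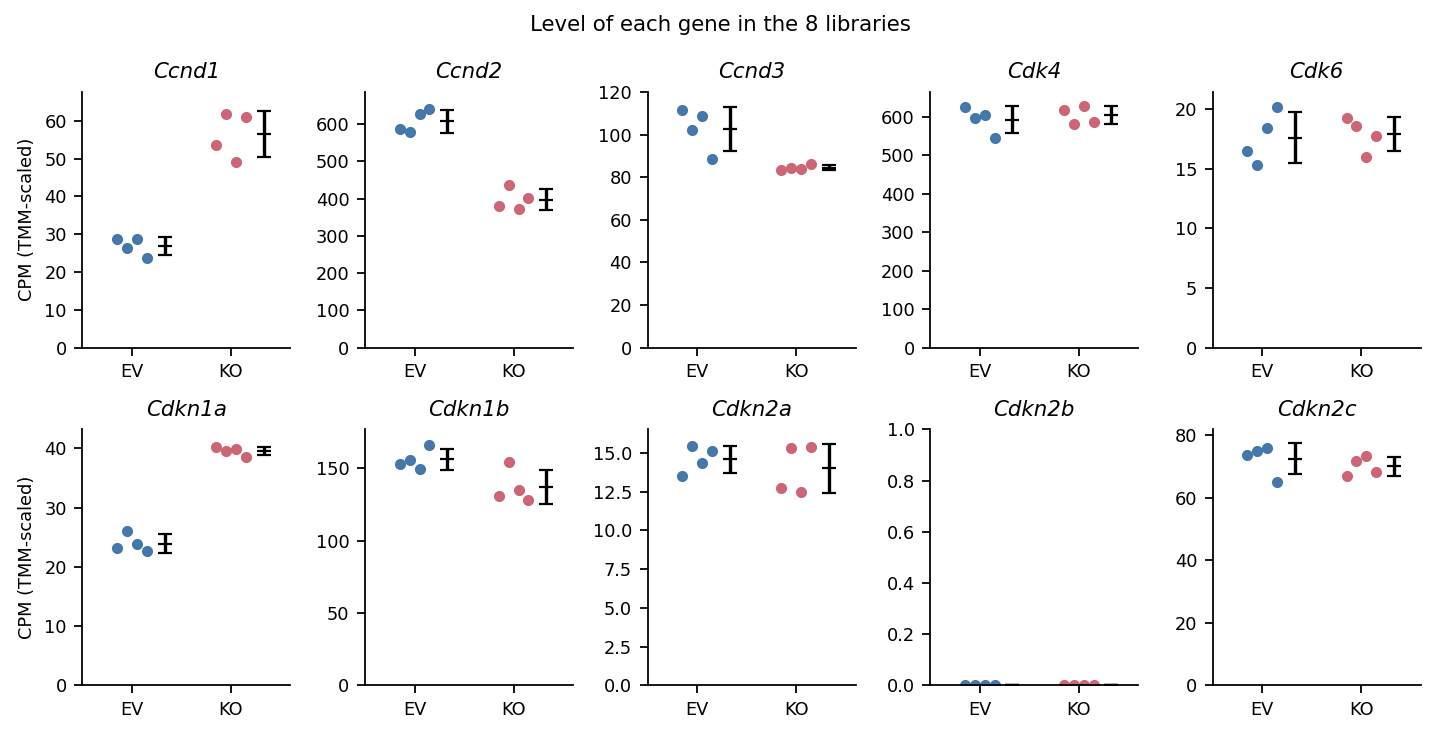
Level of each of the 10 genes in CPM on trimmed-mean (TMM) scaled library totals (vertical axis, from 0, each panel with its own scale) for the 4 EV (blue) and 4 KO (red) libraries, with the mean and SD beside each group. Ccnd1 and Cdkn1a are higher in all 4 KO libraries than in any EV library, Ccnd2 and Ccnd3 are lower in all 4, Cdkn1b overlaps by 1 KO library, and Cdkn2b is at 0 throughout.

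The study's title names a microRNA pathway downstream of Hdac3, and D cyclins are textbook targets of the miR-15/16 family and of the miR-322 and miR-503 cluster. MicroRNAs were not measured in these libraries. The mature sequences of 3 of these microRNAs are shown to let the sites in the D cyclin messages be read against them. They come from RefSeq (GRCm38.p6), where all 16 names searched were matched, and the capitals mark the seed (bases 2 to 8). miR-322 and miR-503 lie close together on the minus strand of chromosome X (53054306 to 53054327 and 53054027 to 53054049).
miR-322-5p: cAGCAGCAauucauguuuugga
miR-16-5p: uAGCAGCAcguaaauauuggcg
miR-503-5p: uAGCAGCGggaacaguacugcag

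The seed AGCAGCA is shared by miR-322, miR-16, miR-15a, miR-15b, miR-195a and miR-497a, and miR-503 carries the seed AGCAGCG. The matching target letters are TGCTGCT for the first seed and CGCTGCT for miR-503, searched on the message strand in the annotated 3′ UTR of each gene (GENCODE M21, mm10). The first was present in the 3′ UTRs of 6 of the 10 genes (Ccnd1, Ccnd2, Ccnd3, Cdk6, Cdkn1a and Cdkn2b) and in 23.5% of the 11742 3′ UTRs searched. The miR-503 match was present in Ccnd1, at 2 places, and in Ccnd2, against 4.35% of all 3′ UTRs. A 30-base window of each site in the 3 D cyclins follows, with the match to the seed in capitals.
Ccnd1, miR-322/16 seed (chr7:144930383-144930412, minus strand): gcatgccaccaTGCTGCTggcccgggggga
Ccnd1, miR-503 seed, first (chr7:144930859-144930888, minus strand): tcctctcatggCGCTGCTaccgatgactcc
Ccnd1, miR-503 seed, second (chr7:144930782-144930811, minus strand): cacgttgttttCGCTGCTattggagggtca
Ccnd2, miR-322/16 seed (chr6:127128530-127128559, minus strand): gtttcacggtgTGCTGCTattttagaaaca
Ccnd2, miR-503 seed (chr6:127128600-127128629, minus strand): ttattatttttCGCTGCTaagaagctaaga
Ccnd3, miR-322/16 seed (chr17:47599283-47599312, plus strand): gttgctttgctTGCTGCTtagcttctgtga

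Other seeds known for these genes were searched the same way. The miR-17 family seed (match GCACTTT, in 14.3% of 3′ UTRs) had 1 match each in Ccnd1, Ccnd2 and Cdkn1a. The miR-221/222 seed (ATGTAGC, 10.3%) matched Ccnd2 at 2 places and Cdkn1b at 1, the miR-34a seed (CACTGCC, 16.4%) matched Cdk6 at 4, and the let-7 seed (CTACCTC, 9.62%) matched Cdk4 at 1. Long UTRs hold more matches of any kind: the 3′ UTRs of Ccnd1, Ccnd2, Cdk6 and Cdkn1b were 2676, 5173, 10217 and 3439 bases, against a median of 1070 bases over the genes searched. In the deposited gene models, Cdk6 ends at 3523218 and Ccnd2 at 127125779, so the Cdk6 matches from 3524545 on and the Ccnd2 match at 127125328 lie outside them. A match describes the letters only. Among the genes with the AGCAGCA seed match, Ccnd1 and Cdkn1a were higher and Ccnd2 and Ccnd3 lower in KO. Cdk6 did not pass the test and Cdkn2b had no count. Whether any microRNA acted on these messages was not tested.

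Ccnd1 (ENSMUSG00000070348, mm10 chromosome 7, 144929931 to 144939869, minus strand) encodes cyclin D1, the D cyclin most directly tied to mitogen signalling. It lay at 28.7, 26.4, 28.7 and 23.6 CPM in the EV libraries (replicates 1 to 4, in that order here and in the following) and at 53.5, 61.8, 49.2 and 61.1 CPM in the KO libraries. The groups did not overlap, and the lowest KO library was well above the highest EV library. The group means were 26.8 ± 2.40 and 56.4 ± 6.11 CPM (SD, n = 4 each), a 2.10-fold rise. On the log2 scale the change was 1.07 (SE 0.0796, edgeR quasi-likelihood adjusted p = 7.40e-09). Of the 1613 genes that rose, Ccnd1 had the 67th largest log2 fold change, so 4.15% of the rises were at least as large. The rise was 1.10 on the log2 scale without KO replicates 2 and 3, which held the most liver counts, and 1.10 without KO replicate 1.

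Ccnd2 (ENSMUSG00000000184, chromosome 6, 127125779 to 127151048, minus strand) encodes cyclin D2. The EV libraries were at 585, 578, 626 and 640 CPM, and the KO libraries at 381, 436, 371 and 400 CPM. No KO library reached the lowest EV library. The mean went from 607 ± 30.2 to 397 ± 28.4 CPM, and EV was 1.53-fold higher than KO. On the log2 scale the change was −0.61 (SE 0.0529, edgeR adjusted p = 5.18e-08), the 459th largest of the 1711 falls, and it was −0.635 without KO replicates 2 and 3.

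Ccnd3 (ENSMUSG00000034165, chromosome 17, 47505051 to 47599691, plus strand) encodes cyclin D3. It was measured at 112, 102, 109 and 88.5 CPM in the EV libraries and at 83.3, 84.4, 83.9 and 86.0 CPM in the KO libraries. The groups did not overlap, but EV replicate 4 was close to the KO libraries, which were themselves nearly level. The mean fell from 103 ± 10.3 to 84.4 ± 1.16 CPM, or −0.28 on the log2 scale (SE 0.0604, edgeR adjusted p = 0.00174). This was the 1065th largest of the falls. Left out one at a time, the libraries gave values between −0.35 and −0.25. For Ccnd1, Ccnd2 and Ccnd3 the exact permutation test over the 70 arrangements of the libraries gave p = 0.0286, two-sided, the smallest it can give.

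A D cyclin message can also be set against the others on a per-length scale. Counts divided by gene length on TMM-scaled totals (FPKM) put Ccnd2 first, Ccnd3 next and Ccnd1 last in both groups, and the libraries of neighbours in that order did not overlap. Ccnd2 was at 107 ± 5.30 FPKM in EV and 69.6 ± 4.99 in KO, Ccnd3 at 26.6 ± 2.66 and 21.9 ± 0.302, and Ccnd1 at 7.18 ± 0.642 and 15.1 ± 1.63. The sum of the 3 levels was 139, 135, 146 and 142 FPKM in the EV libraries and 103, 115, 100 and 109 FPKM in the KO libraries. The summed D cyclin message was thus lower in every KO library (140 ± 4.43 and 107 ± 6.61 FPKM), since Ccnd1 added less than Ccnd2 lost on this scale.

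The make-up of the D cyclin pool differed between the groups. Ccnd1 made up 5.51, 5.23, 5.26 and 4.46% of the D cyclin sum in the EV libraries, against 13.9, 14.4, 13.2 and 15.01% in the KO libraries. Ccnd2 made up 75.9 ± 2.40% in EV and 65.3 ± 0.874% in KO, again with no overlap. The Ccnd3 share was 19.0 ± 1.95% in EV and 20.6 ± 1.14% in KO, and there the groups overlapped. Ccnd2 exceeded Ccnd1 by 14.96 ± 1.93 times in EV and by 4.64 ± 0.267 times in KO. These shares do not depend on the library scaling. They divide by the full gene length. In GENCODE M21, genes of the opposite strand share 1100 exon bases with Ccnd1, 368 with Ccnd2 and 361 with Ccnd3. How the deposited counts treated shared bases is not known, so the shares may be affected. The shares are descriptions of messages, with no test.

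**Figure D2:**
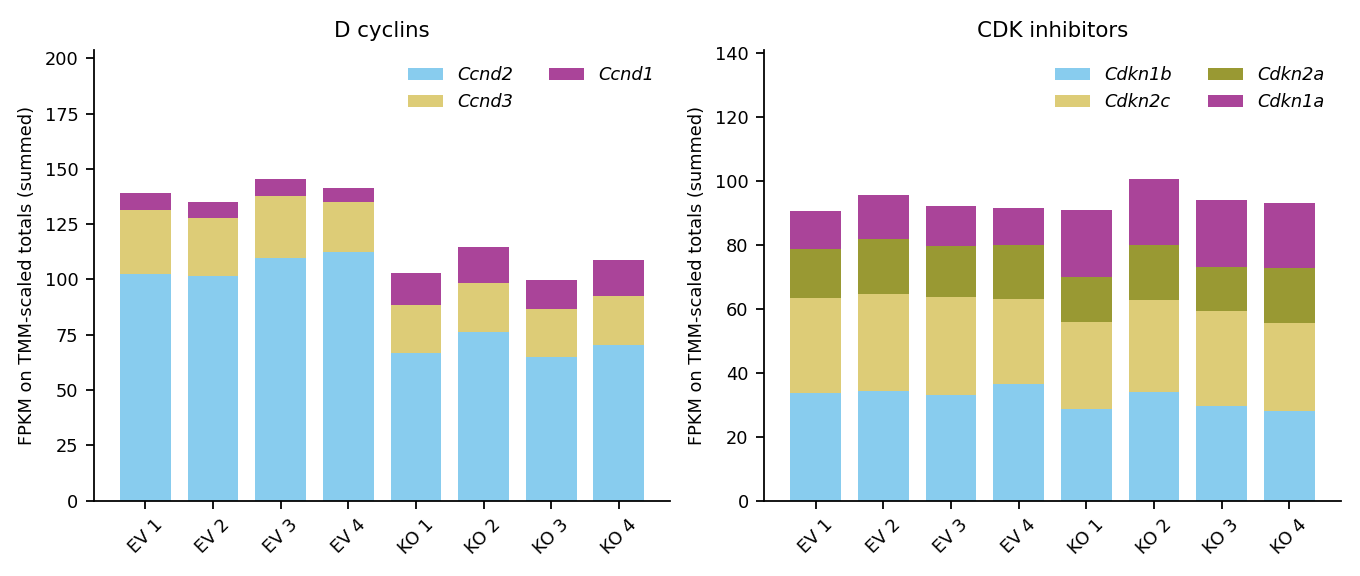
Stacked levels in FPKM on TMM-scaled totals (vertical axis, from 0) of the 3 D cyclins (left) and of the 4 detected inhibitors (right) in each of the 8 libraries. The D cyclin stack is shorter in every KO library with a larger Ccnd1 segment, while the inhibitor stacks have similar heights with a larger Cdkn1a segment in KO.

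The kinases showed no called difference. Cdk4 (ENSMUSG00000006728, chromosome 10, 127063534 to 127067920, plus strand), the main D cyclin partner by message here, was at 624, 596, 603 and 544 CPM in the EV libraries and at 617, 581, 628 and 586 CPM in the KO libraries. The groups overlapped, and the log2 fold change was 0.03, with an interval of 2 SE either side from −0.07 to 0.12 (edgeR adjusted p = 0.722). Cdk6 (ENSMUSG00000040274, chromosome 5, 3343893 to 3523218, plus strand), which pairs with the same cyclins, was at 16.4, 15.3, 18.4 and 20.2 CPM in EV and at 19.2, 18.6, 16.0 and 17.7 CPM in KO. Its interval ran from −0.16 to 0.21 on the log2 scale around 0.02 (edgeR adjusted p = 0.888). The sign of both values changed under some alternative scalings.

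Per length, Cdk4 stood at 288 ± 16.6 FPKM in EV and 294 ± 11.2 FPKM in KO, and Cdk6 at 4.71 ± 0.577 and 4.79 ± 0.373 FPKM. Cdk4 therefore exceeded Cdk6 by 62.2 ± 10.04 times in EV and 61.7 ± 6.62 times in KO, with overlapping groups. Among 12003 tested protein-coding genes, the Cdk4 level was above 98.4% of the others in both groups. Ccnd2 was above 95.4% of these genes in EV and 92.3% in KO. Ccnd1 was above 42.6% in EV and 64.0% in KO, and Cdk6 above 32.5% and 33.5%.

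Cdkn1a (ENSMUSG00000023067, chromosome 17, 29090979 to 29100722, plus strand) encodes p21, the CDK inhibitor induced by p53. Its 2 promoters in the RefSeq table (GRCm38.p6, 250 bases before to 50 after a transcript start) are shown because Cdkn1a was the inhibitor that rose. The sequences are read 5′ to 3′ on the gene's strand. Capitals mark a p53 response element in the first (20 letters, at most 1 mismatch, both strands). In the second they mark 2 GC boxes (GGGCGG) and an E2F match (TTNNCGC).
Cdkn1a, first start (chr17:29090729-29091028): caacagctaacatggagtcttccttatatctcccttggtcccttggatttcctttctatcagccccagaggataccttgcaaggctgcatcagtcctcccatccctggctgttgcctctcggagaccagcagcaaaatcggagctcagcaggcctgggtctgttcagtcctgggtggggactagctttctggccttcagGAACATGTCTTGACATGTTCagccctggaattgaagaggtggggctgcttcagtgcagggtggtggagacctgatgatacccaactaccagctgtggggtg
Cdkn1a, second start (chr17:29093519-29093818): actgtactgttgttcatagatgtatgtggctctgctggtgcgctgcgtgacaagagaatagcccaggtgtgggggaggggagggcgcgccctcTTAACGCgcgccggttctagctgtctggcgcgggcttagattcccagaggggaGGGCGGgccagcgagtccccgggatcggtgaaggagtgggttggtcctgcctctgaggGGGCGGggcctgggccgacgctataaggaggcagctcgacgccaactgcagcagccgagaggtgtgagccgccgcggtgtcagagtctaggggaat

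The p53 element starts 51 bases before the first annotated start, and 0.0883% of the 32851 promoters in the table held one by the same criterion. GC boxes were found in 35.7% and E2F matches in 20.2% of all promoters. The counts are per gene and cannot be divided between the starts, and a match in a window is a description of its letters.

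Cdkn1a was at 23.1, 26.1, 23.8 and 22.6 CPM in the EV libraries and at 40.2, 39.6, 39.9 and 38.6 CPM in the KO libraries. The KO libraries were tightly grouped and all lay above the highest EV library. The mean rose 1.65-fold, from 23.9 ± 1.55 to 39.6 ± 0.692 CPM. On the log2 scale this was 0.72 (SE 0.0633, edgeR adjusted p = 6.13e-08), and 0.72 without KO replicates 2 and 3. The exact permutation p was 0.0286, two-sided. It was the 186th largest of the 1613 rises. The Trp53 message, which encodes p53, was at 185 ± 2.08 CPM in EV and 185 ± 4.15 CPM in KO, and its protein was not measured.

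Cdkn1b (ENSMUSG00000003031, chromosome 6, 134920401 to 134925513, plus strand) encodes p27, which accumulates in quiescent cells and is removed by ubiquitin ligases as cells enter S phase. Its promoter is shown as that of the Cip/Kip inhibitor that moved the other way. Capitals mark 1 GC box, 3 CCAAT boxes (CCAAT, in 37.4% of all promoters) and 1 CRE half-site (TGACG, in 20.8%), on either strand.
Cdkn1b (chr6:134920151-134920450): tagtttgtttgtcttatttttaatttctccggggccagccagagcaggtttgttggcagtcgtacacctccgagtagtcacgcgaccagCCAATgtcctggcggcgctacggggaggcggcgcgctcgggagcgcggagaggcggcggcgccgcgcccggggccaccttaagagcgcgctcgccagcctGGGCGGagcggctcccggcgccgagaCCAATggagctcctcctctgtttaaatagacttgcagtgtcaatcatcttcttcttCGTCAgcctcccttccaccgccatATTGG

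The Cdkn1b level was 153, 156, 150 and 166 CPM in the EV libraries and 131, 154, 135 and 128 CPM in the KO libraries. KO replicate 2 lay within the EV range while the other 3 lay below it. The mean went from 156 ± 7.20 to 137 ± 11.8 CPM, or −0.19 on the log2 scale (SE 0.0562, edgeR adjusted p = 0.0165), one of the smaller falls called (1468th of 1711). The exact permutation test gave p = 0.0857, two-sided. The fall did not pass the edgeR test without KO replicate 1 (adjusted p = 0.0643) or without KO replicate 4 (adjusted p = 0.0715). Without KO replicates 2 and 3 it was −0.27 (adjusted p = 0.00491).

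The Ink4 inhibitors did not pass the test. Cdkn2c (ENSMUSG00000028551, chromosome 4, 109660876 to 109667189, minus strand), which encodes p18, was at 73.8, 74.99, 75.8 and 65.1 CPM in EV and at 66.8, 71.6, 73.2 and 68.2 CPM in KO. The groups overlapped, with a log2 fold change of −0.05 and an interval from −0.16 to 0.06 (edgeR adjusted p = 0.562). Cdkn2a (ENSMUSG00000044303, chromosome 4, 89274471 to 89294653, minus strand) encodes p16 and, from another first exon and reading frame, p19Arf, an inhibitor of Mdm2. The deposited counts do not separate these transcripts.

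Cdkn2a was at 13.5, 15.4, 14.3 and 15.1 CPM in EV and at 12.7, 15.3, 12.5 and 15.4 CPM in KO. KO replicates 1 and 3 were lower than any EV library, and the other 2 were close to the highest EV library. Its log2 fold change was −0.06, with an interval from −0.25 to 0.13 (edgeR adjusted p = 0.668). Cdkn2b (ENSMUSG00000073802, chromosome 4, 89306289 to 89311032, minus strand), which encodes p15, the Ink4 inhibitor induced by TGF-beta, had 0 counts of 170503238 over the 8 libraries. A count of 0 allows a level of up to 3 counts, or between 0.125 and 0.164 CPM depending on the library, which covers counting error only. The Cdkn2a gene, its neighbour, was thus detected in every library while Cdkn2b was not.

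Around this locus, Mtap, an enzyme of the methionine salvage pathway that lies beside Cdkn2a, was at 245 ± 8.62 CPM in EV and 219 ± 5.14 CPM in KO (log2 fold change −0.16, edgeR adjusted p = 0.00949). The non-coding gene Gm12603, also in this window, was at 1.503 ± 0.476 and 2.99 ± 0.406 CPM (log2 fold change 0.98, edgeR adjusted p = 0.00255). Both were chosen for mention after their values were seen. Of 24 genes with a start within 500 kb of Cdkn2a, 18 had no count in any library. Over all 35275 genes listed, 20062 had at least 1 count.

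On the per-length scale the 4 detected inhibitors summed to 92.5 ± 2.10 FPKM in EV and 94.7 ± 4.17 FPKM in KO, with overlapping groups, while the parts shifted. Cdkn1a made up 13.3, 14.3, 13.5 and 12.9% of the inhibitor sum in the EV libraries, against 23.1, 20.6, 22.2 and 21.7% in the KO libraries. Cdkn1b made up 37.1 ± 1.92% in EV and 31.7 ± 1.43% in KO, which did not overlap even though its CPM values did. Cdkn1b exceeded Cdkn1a by 2.75 ± 0.249 times in EV and 1.45 ± 0.124 times in KO. The shares of Cdkn2a (17.6 ± 0.802 and 16.5 ± 1.59%) and Cdkn2c (31.7 ± 2.07 and 29.9 ± 1.14%) overlapped.

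In EV the order of levels per length was Cdk4, Ccnd2, Cdkn1b (34.3 ± 1.58 FPKM), Cdkn2c (29.3 ± 1.99), Ccnd3, Cdkn2a (16.3 ± 0.976), Cdkn1a (12.5 ± 0.811), Ccnd1 and Cdk6. Of neighbours in that order, only Cdkn2c and Ccnd3 had overlapping libraries. In KO, Cdkn1a (20.7 ± 0.362 FPKM) stood just under Ccnd3 and above Cdkn2a (15.6 ± 1.77). There the libraries of Cdkn1b (30.1 ± 2.60) and Cdkn2c (28.3 ± 1.20), and those of Cdkn2a and Ccnd1, overlapped.

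**Figure D3:**
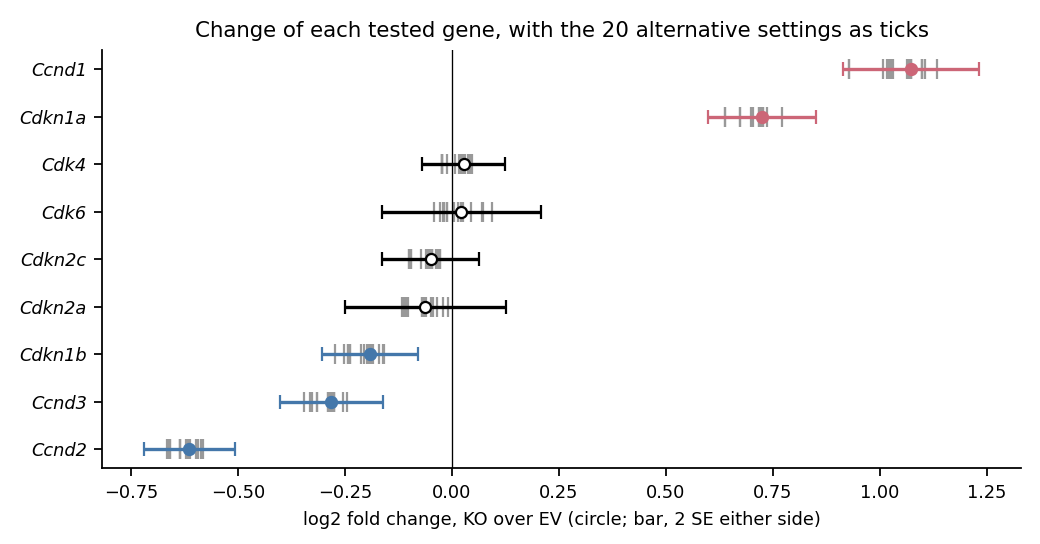
Log2 fold change of KO over EV for the 9 tested genes (horizontal axis; circle, edgeR estimate; bar, 2 SE either side; filled red higher and filled blue lower past the adjusted threshold, open not past it), with the value under each of 20 alternative settings as grey ticks. The ticks of Ccnd1, Cdkn1a, Cdkn1b, Ccnd3 and Ccnd2 stay on 1 side of 0, as do those of Cdkn2a and Cdkn2c, which were not called. Those of Cdk4 and Cdk6 fall on both sides.

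The count of genes whose CPM did not overlap between groups was 3398 of 12801 (26.5%), with 12.6% higher and 13.9% lower in KO. Among the 10 genes, Ccnd1 and Cdkn1a were higher and Ccnd2 and Ccnd3 lower with no overlap. Genes of the opposite strand share exons with some of them in GENCODE M21, and no source used here gives the strand setting. Oraov1 shares 1100 exon bases with Ccnd1 and lay between 12.1 and 15.1 CPM in the 8 libraries (log2 fold change −0.07, edgeR adjusted p = 0.635). Bysl shares 361 bases with Ccnd3 (30.8 CPM in EV, 33.6 in KO), and Tspan31 shares 641 with Cdk4 (77.3 and 76.2 CPM). The long non-coding 9330179D12Rik shares 368 bases with Ccnd2 and reached at most 0.862 CPM. Gm17590, inside Cdk6, had no count.

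Neighbouring genes were counted in both directions. Of those with a start within 500 kb, 2 of 6 tested rose and 0 fell around Ccnd1, and 0 of 5 rose and 1 fell around Ccnd2. Around Ccnd3, 0 of 12 rose and 1 fell. Around Cdkn1a, 2 of 13 rose and 1 fell, and around Cdkn1b 1 of 13 rose and 3 fell. Around genes that did not pass the test, the counts were 7 of 21 higher and 1 lower for Cdk4, 1 of 7 and 0 for Cdk6, 1 of 3 and 1 for Cdkn2a, and 2 of 8 and 0 for Cdkn2c. Over all genes tested the shares were 12.6% and 13.4%, and the neighbour counts were not tested.

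The genes whose log2 CPM followed each called gene most closely over the 8 libraries were taken by Pearson's r, given as a description. Since the 8 points form the same EV and KO groups, a high r mostly reflects a shared group difference. For Ccnd1 these were the collagen gene Col1a2 (r = 0.994), the myosin Myo1c (0.994) and the cytokine Csf1 (0.993). For Cdkn1a they were the TNF receptor Tnfrsf1b (0.997), the protease Prss23 (0.996) and the creatine transporter Slc6a8 (0.994). For Ccnd2 they were the metalloprotease Adamts12 (0.995), the channel Tpcn1 (0.995) and the ubiquitin ligase Peli1 (0.994). Ccnd3 was followed by Adra1b (0.983), Smad6 (0.982) and Clec2l (0.977), and Cdkn1b by Adarb1 (0.978) and Rnpc3 (0.975). There were 22 genes with r over 0.98 for Ccnd1, 61 for Ccnd2, 35 for Cdkn1a, 2 for Ccnd3 and 0 for Cdkn1b.

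Around the 10 genes, 140 other genes of the G1 pathway, both upstream and downstream, were tested in 8 lists. The lists were chosen with earlier results of these data known. Of these 140 genes, 22 rose and 40 fell, beside 12.6% and 13.4% of all genes tested. The fall count was 20 without KO replicates 2 and 3, a fit on 6 libraries in which 1094 of all genes fell instead of 1711. That fit tested 13146 genes and called 880 of them higher. List counts without these libraries are to be read beside those numbers. Of the S phase cyclins, Cdk2 and the Cdc25 phosphatases, 7 were tested, 0 rose and 4 fell (2 without KO replicates 2 and 3). Ccna2, cyclin A2 of S phase and mitosis, went from 62.2 ± 4.86 to 38.6 ± 1.55 CPM (log2 fold change −0.69). Ccne1, cyclin E1, the activator of CDK2, went from 10.9 ± 1.63 to 7.89 ± 0.869 CPM (−0.46), a call lost without KO replicates 2 and 3 (edgeR adjusted p = 0.130). The phosphatases Cdc25b (−0.38) and Cdc25c (−0.85) also fell, Cdc25b with a call lost without the same libraries (edgeR adjusted p = 0.0574). Ccne2 (8.01 ± 1.32 and 8.20 ± 1.28 CPM) and Cdk2 (35.4 ± 2.73 and 35.8 ± 1.29 CPM) did not pass the test.

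Of 18 pocket proteins, E2F and DP factors and MuvB subunits, 1 rose and 6 fell, beside 12.6% and 13.4% of all genes tested. The counts were 0 and 3 without KO replicates 2 and 3, where 880 and 1094 of all 13146 genes tested rose and fell. The pocket protein Rbl1, p107, went from 25.2 ± 0.888 to 18.2 ± 1.56 CPM (log2 fold change −0.47), while Rb1, the target of the D cyclin kinases, was at 14.3 ± 2.17 and 12.6 ± 0.477 CPM (−0.18, edgeR adjusted p = 0.211). The MuvB subunit Lin9 (−0.62), the dimer partner Tfdp2 (−0.26) and the repressor E2Fs E2f8 (−0.52), E2f6 (−0.26) and E2f5 (−0.43) fell. Without KO replicates 2 and 3 these 3 repressors lost the edgeR call (adjusted p = 0.0656, 0.0609 and 0.144). The activator E2f1 went the other way, from 26.5 ± 2.55 to 31.1 ± 1.83 CPM (0.23, edgeR adjusted p = 0.0290), a rise that 8 of 20 alternatives did not call, with adjusted p up to 0.195.

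Of 17 tested genes that E2F factors switch on for S phase, 0 rose and 11 fell, beside 12.6% and 13.4% of all genes tested. Their median log2 fold change was −0.17. The counts were 0 and 4 without KO replicates 2 and 3, where 880 and 1094 of all 13146 genes tested rose and fell. Rrm2, a ribonucleotide reductase subunit, went from 73.5 ± 4.03 to 52.9 ± 2.10 CPM and the thymidine kinase Tk1 fell by 0.36 on the log2 scale. The polymerase Pole (−0.39) and the replication helicase subunits Mcm2 (−0.17), Mcm5 (−0.22) and Mcm7 (−0.20) also fell. Pole and Mcm5 lost the edgeR call without KO replicates 2 and 3 (adjusted p = 0.102 and 0.120).

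Of the other CDK inhibitors, Cdkn3, a phosphatase that acts on CDK2 and peaks in dividing cells, fell from 6.76 ± 0.594 to 3.63 ± 0.253 CPM (−0.90). Cdkn1c, p57, was at 1.49 ± 0.159 and 1.79 ± 0.611 CPM, and Cdkn2d, p19, at 11.5 ± 2.82 and 11.3 ± 1.17 CPM, neither past the test. Of 23 genes for the assembly, activation and turnover of D cyclin kinases and p27, 1 rose and 5 fell. The shares over all genes tested were 12.6% and 13.4%. The list's counts were 0 and 2 without KO replicates 2 and 3, where 880 and 1094 of all 13146 genes tested rose and fell. Cks2, a CDK subunit, fell from 24.0 ± 2.07 to 16.9 ± 1.71 CPM. The ubiquitin ligase components Btrc (−0.30), Cul1 (−0.19), Ubac1 (−0.24) and Fbxw7 (−0.30) fell. Fbxw7 lost the edgeR call in 7 of 20 alternatives (adjusted p up to 0.125), and Cul1 and Ubac1 lost it without KO replicates 2 and 3. Cul4b, a cullin scaffold, rose by 0.16, a call that 11 of 20 alternatives lost, and its groups overlapped.

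**Figure D4:**
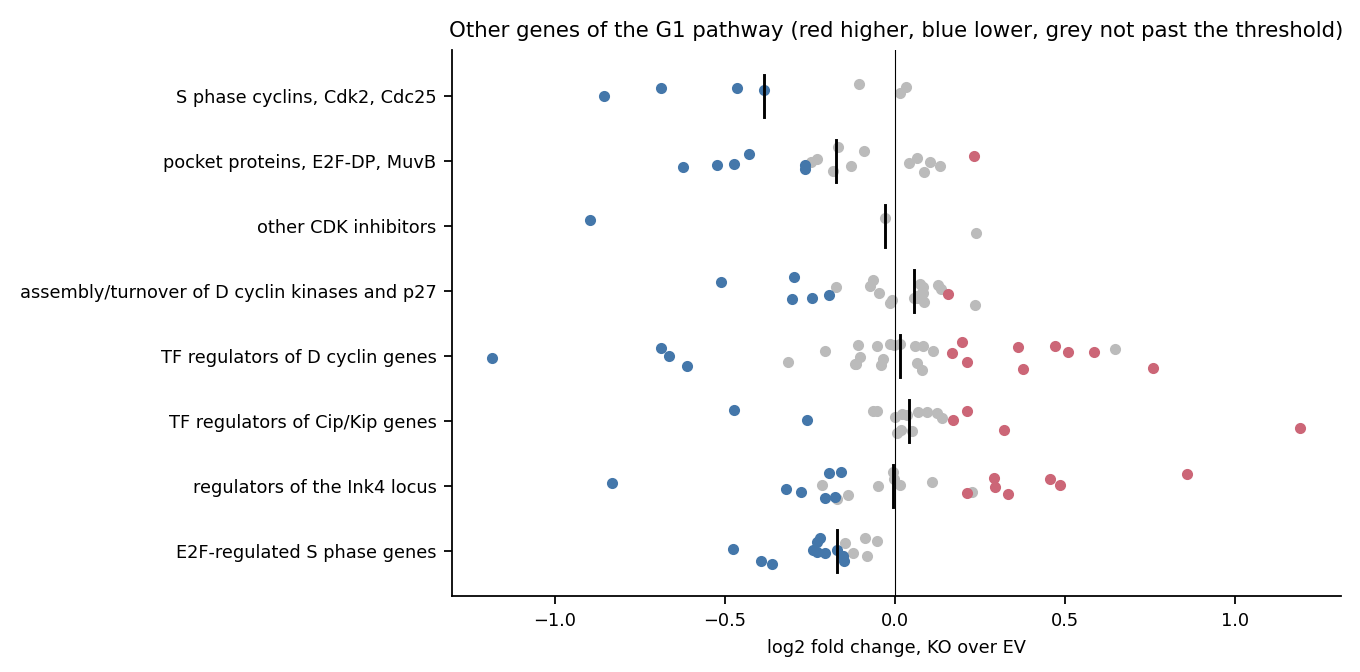
Log2 fold change of KO over EV (horizontal axis) for each tested gene of 8 lists of G1 pathway genes (rows), red where higher, blue where lower and grey where not past the adjusted threshold, with the list's median as a black bar. The called S phase cyclins and E2F-regulated genes lie to the left of 0, and the regulators of D cyclin genes lie on both sides.

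Upstream, 31 transcriptional regulators known to act on D cyclin genes were tested. Of them 9 rose and 4 fell, beside 12.6% and 13.4% of all genes tested. Under scaling by library totals 8 fell, a setting in which 2414 of all 12801 genes tested fell instead of 1711. Egr1, an immediate early factor, rose from 71.3 ± 2.81 to 121 ± 10.3 CPM (0.76), Ets2 from 82.5 ± 3.97 to 114 ± 4.05 CPM (0.47) and the AP-1 member Junb from 38.8 ± 5.03 to 55.1 ± 4.31 CPM (0.51). Lef1, a Wnt pathway factor that acts on Ccnd1, fell from 24.7 ± 1.24 to 10.9 ± 0.932 CPM, its relative Tcf7l1 by 0.66 on the log2 scale, and Foxm1 by 0.69. Myc was at 18.5 ± 1.17 and 18.4 ± 1.41 CPM.

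Of 18 tested regulators of the Cip/Kip genes, 4 rose and 2 fell, beside 12.6% and 13.4% of all genes tested. Without KO replicates 2 and 3, 1 fell, in a fit where 1094 of all 13146 genes tested fell. Klf4, a factor that acts with p53 on Cdkn1a, rose from 6.37 ± 1.02 to 14.5 ± 1.68 CPM (1.19, edgeR adjusted p = 4.79e-07), with no overlap between groups. Smad3 (0.17), Klf6 (0.21) and Bcl6 (0.32) rose by less, and Brca1 (−0.47) and Smad2 (−0.26) fell. Of 20 alternatives, Klf6 lost the edgeR call in 4 (adjusted p up to 0.112), Smad2 in 4 (up to 0.0987) and Bcl6 in 1. Of 23 tested regulators of the Ink4 locus, 7 rose and 7 fell, beside the same shares of all genes tested. The counts were 4 and 3 without KO replicates 2 and 3, where 880 and 1094 of all 13146 genes tested rose and fell. Among the Polycomb proteins that repress this locus, Bmi1 fell from 128 ± 8.35 to 102 ± 4.51 CPM and Ezh2 from 42.1 ± 1.95 to 34.7 ± 1.41 CPM, while Cbx2 rose from 19.8 ± 0.632 to 24.9 ± 1.46 CPM. The histone demethylase Kdm6b (0.29) and the chromatin proteins Hmga1 (0.49) and Hmga2 (0.29) rose.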

How the data were processed

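RNA of 8 libraries, 4 EV and 4 KO, was sequenced on an Illumina instrument after Trizol extraction, per the labels' protocols. The authors deposited whole-number counts per gene and FPKM values for 35275 genes. The deposited FPKM equal the count divided by gene length and library sum for 100% of nonzero values, within 1e-06. Per the submitters' processing notes the build is mm10 and DESeq 1.6.3 was used. No source used here names the aligner, counting tool, annotation release or strand setting.

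The counts were tested with edgeR 4.0.16 (R 4.3.3): TMM, filterByExpr (minimum count 10, minimum total 15), quasi-likelihood F test, two-sided, Benjamini-Hochberg adjustment over all 12801 genes tested, threshold 0.05. Single genes also had an exact permutation test over 70 arrangements. Levels are CPM on TMM-scaled totals, as mean ± SD over 4 libraries. Per-length levels are those CPM divided by gene length. Pearson's r used log2 CPM with a prior count of 3. Replicates of a group were compared on genes with 20 or more counts. Their chi-square divided by its degrees of freedom was 4.01 to 13.2, above sampling noise, and every library was kept as its own replicate. The scripts were tested on simulated data.

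The members and lists were chosen with earlier results of these data known. The text names all 10 genes, from each list up to 6 called genes with the smallest adjusted p, and Rb1, Cdkn1c, Cdkn2d, Trp53, Myc, E2f1, Ccne1, Ccne2 and Cdk2 whatever their result, beside overlapping genes and the 3 genes most like each called gene (no gene models without a proper name, none on chromosome 18). A gene that this rule takes is not reported here. Ccnd1 and Ccnd2 were not among the 8 genes matched in the promoter table. Alternatives were DESeq2 1.42.0, limma-voom (limma 3.58.1), other scaling factors and filters, limma on log2 FPKM with pseudocounts of 1 and 0.1, the replicate number as a block, and leaving out libraries. Of these, leaving out KO replicates 2 and 3 was chosen after the data were examined.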

Additional observations from a re-analysis of the deposited data

How the results depend on the processing

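Under 20 alternatives Ccnd1, Ccnd2, Ccnd3 and Cdkn1a kept their direction and call, with log2 fold changes from 0.93 to 1.13, −0.66 to −0.58, −0.35 to −0.25 and 0.64 to 0.77. Cdkn1b kept its direction (−0.27 to −0.16) and lost the call in 2, without KO replicate 1 or 4. The labels do not say whether the replicate numbers pair the libraries. The r of same-numbered deviations was 0.12, −0.03, 0.06 and 0.09 for EV replicates 1 to 4. The highest r with another number was 0.0034, 0.0428, 0.0132 and 0.0632. Whether the numbers mark a pairing was not tested further. With the replicate number as a block 3737 genes were called instead of 3324. The counts among the 10 genes stayed at 2 higher and 3 lower. Genes called higher numbered 1039 under library totals, 896 with log2(FPKM + 1), 897 with log2(FPKM + 0.1), 766 with log2(FPKM + 1) unfiltered and 880 without KO replicates 2 and 3. Without those 2 libraries 1094 genes were lower, and 20 of the pathway genes. The fit without them has fewer libraries; for the others the cause was not tested.

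Values that changed sign belonged to genes not called in any fit. By setting, these were, under library totals, Cdk4 −0.02361, Cdk6 −0.02886, Trp53 −0.05046, Ccne2 −0.01719 and Cdk2 −0.03651. With log2(FPKM + 1), filtered or not, they were Cdk4 −0.02266, Cdk6 −0.01854, Trp53 −0.04978, Ccne2 −0.01075 and Cdk2 −0.03069. With log2(FPKM + 0.1) they were Cdk4 −0.02272, Cdk6 −0.02138, Trp53 −0.05057, Ccne2 −0.01399 and Cdk2 −0.03242. Trp53 was −0.0005949 with DESeq2 and −0.006662 unfiltered. Without KO replicates 2 and 3, Cdkn2d was 0.06671, Trp53 −6.636e-05, Myc 0.08806 and Cdk2 −0.01669. With 1 library left out at a time, values ranged from −0.0113 to 0.04786 for Cdk4, −0.04148 to 0.09445 for Cdk6, −0.01207 to 0.01293 for Trp53, −0.05067 to 0.1313 for Ccne2, −0.01699 to 0.06506 for Cdk2, −0.04156 to 0.03581 for Myc and −0.1341 to 0.1185 for Cdkn2d. Low counts limit what can be said of Cdkn2b, with 0 counts, and of Cdkn1c, with mean levels under 2 CPM in both groups.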
